A study of Rattus norvegicus with 16 samples.

Results

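Nr3c2, which encodes the mineralocorticoid receptor, and Hsd11b1, an enzyme that makes active glucocorticoid inside cells, were higher in the hippocampus of exercise-trained rats than of sedentary rats, and lower in old than in young rats. Sgk1, a kinase gene known as a target of both corticosteroid receptors, went the other way in both respects. These differences are averages, over age for training and over training for age. Within sedentary or trained rats alone, the age differences of Nr3c2 and Hsd11b1 did not pass the test. The age difference of Sgk1 passed in trained rats only, a call lost without any 1 of 10 libraries, each left out alone. For training, Nr3c2 did not pass in young rats alone, nor Sgk1 in old rats alone. Averaged in this way, 33.9% of all genes tested were called for training and 10.5% for aging. With a covariate estimated from the counts of all genes, the training calls averaged over age of Nr3c2, Hsd11b1 and Sgk1 were lost. In young rats alone, the training calls of Hsd11b1 and Sgk1 held with that covariate, and Nr3c2 passed. In old rats no call held with it. Nr3c1, which encodes the glucocorticoid receptor, passed the test in none of 7 comparisons. These 4 genes were chosen by their Ensembl IDs, ENSRNOG00000014096 (Nr3c1), ENSRNOG00000034007 (Nr3c2), ENSRNOG00000011815 (Sgk1) and ENSRNOG00000005861 (Hsd11b1). All 4 of the 4 listed IDs were among the 32754 IDs of the count table, and all 4 passed the filter on low counts with 15035 genes in all. The symbols come from the definition of the gene group, because the table gives IDs only.

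The libraries were made from bulk hippocampus of male, wild-type Fischer-344 rats, an inbred strain often used to study aging. Young rats were 6 months old and old rats 20 months old when obtained, and at each age they were kept sedentary or put through exercise training for 10 weeks. Each age was split into sedentary and trained animals, which gave 4 groups of 4 rats. All of them, sedentary ones included, also went through behavioral tests that ended 2 days before tissue was taken.

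Corticosterone, the main glucocorticoid of rats, reaches the brain from the adrenal gland and binds receptors that act as transcription factors. The mineralocorticoid receptor binds it with high affinity and is abundant in hippocampal neurons, whereas the glucocorticoid receptor binds it with lower affinity and is found in most cell types. The enzyme encoded by Hsd11b1 regenerates active hormone from its inert keto form within cells, and Sgk1 encodes a serine/threonine kinase that regulates ion channels and transporters and is induced by corticosteroids as well as by other signals such as growth factors.

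Library totals ran from 8630396 to 14576687 counts. The first principal component of log2 CPM (counts corrected for library size with TMM factors) held 46.9% of the variance and separated trained from sedentary libraries, while the ages overlapped within each training state: it ran from 22.6 to 39.8 in young trained and from 18.9 to 28.4 in old trained libraries, from -29.3 to -0.69 in young sedentary and from -55.9 to -12.7 in old sedentary libraries. Old sedentary replicate 3, at -12.7, stood apart from the other old sedentary libraries, of which the highest was at -49.7. A rule then picked 11 genes with 3 counts or fewer in every trained library and 1 CPM or more on average in sedentary rats. They summed to 8.99 to 47.4 CPM in young sedentary and 26.1 to 116 CPM in old sedentary libraries. Their sum of at most 1.08 CPM in any trained library follows from the rule. The part of these 11 genes' difference in the results below was not tested. The reference gene table matched 0 of the IDs, so markers of hippocampus and of other cell types or regions could not be read. In bulk tissue, fewer cells of a type and less RNA per cell cannot be told apart.

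Gene-level counts of Sgk1 add up transcripts from several start sites, so the reference sequence around those starts is shown before the levels. RefSeq (GRCr8) gives 3 promoter windows for Sgk1 and 2 for Nr3c1, each with 250 bases before and 50 after an annotated start, and entries were found for 2 of the 4 genes. The windows of Sgk1 furthest upstream and furthest downstream both hold a TATAAA motif on the strand of the gene (capitals below), as do 8.80% of all 33469 promoter windows of this length.
Sgk1, upstream start, chr1:24807182-24807481, minus strand: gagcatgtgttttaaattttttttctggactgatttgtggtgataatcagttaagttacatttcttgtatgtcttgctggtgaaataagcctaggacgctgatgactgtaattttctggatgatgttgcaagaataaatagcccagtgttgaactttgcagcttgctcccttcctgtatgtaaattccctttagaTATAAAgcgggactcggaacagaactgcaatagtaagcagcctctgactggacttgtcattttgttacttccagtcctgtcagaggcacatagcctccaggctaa
Sgk1, downstream start, chr1:24804782-24805081, minus strand: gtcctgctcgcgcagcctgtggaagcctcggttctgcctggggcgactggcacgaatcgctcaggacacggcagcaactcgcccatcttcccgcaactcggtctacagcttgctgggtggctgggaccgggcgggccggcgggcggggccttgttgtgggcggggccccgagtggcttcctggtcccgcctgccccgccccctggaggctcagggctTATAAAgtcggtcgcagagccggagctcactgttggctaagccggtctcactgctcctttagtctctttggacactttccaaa
The motif begins at position -55 in the first sequence and at position -33 in the second, with the annotated start at 0. GC content was 40.7% in the first and 66.0% in the second. The receptor half-site AGAACA, searched with its reverse TGTTCT, is in 20.7% of all windows and in 0 of the 5 windows of Sgk1 and Nr3c1. The search covered both strands of these windows only, and the table does not say which start the counts came from.

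The mineralocorticoid receptor gene Nr3c2 had the widest range of the 4 genes, 4.06-fold between its lowest and its highest library. It stood at 39.2, 34.8, 47.9 and 32.7 CPM in young sedentary replicates 1 to 4. The young trained values were 54.0, 55.0, 53.7 and 64.7 CPM. Every young trained rat was thus above every young sedentary rat. In old sedentary replicates 1 to 4 it was 15.9, 22.9, 32.0 and 18.5 CPM, and in old trained replicates 28.2, 40.1, 41.3 and 47.2 CPM. The old groups overlapped, because old sedentary replicate 3 was above old trained replicate 1. As means with SD (n = 4 each), Nr3c2 was at 38.7 ± 6.75 and 56.9 ± 5.27 CPM in sedentary and trained young rats, and at 22.4 ± 7.07 and 39.2 ± 7.96 CPM in sedentary and trained old rats. Young trained rats had the highest level and old sedentary rats the lowest, with the other 2 groups between them and overlapping each other. How many of all genes tested showed a lack of overlap between groups was not counted. Here and below, a lack of overlap therefore only describes the values of the gene named.

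The glucocorticoid receptor gene Nr3c1 varied least, 1.61-fold between its lowest and its highest library. Young sedentary replicates 1 to 4 had 70.0, 62.9, 73.0 and 75.1 CPM, and young trained replicates 62.7, 62.1, 71.9 and 46.7 CPM. Values in old sedentary rats were 69.0, 66.9, 69.9 and 71.0 CPM, and in old trained rats 67.2, 69.1, 71.2 and 69.6 CPM. All 8 old rats thus lay close together, and the lowest value of any library was that of young trained replicate 4. As means with SD (n = 4 each), Nr3c1 was at 70.3 ± 5.31 and 60.8 ± 10.5 CPM in sedentary and trained young rats, and at 69.2 ± 1.73 and 69.3 ± 1.65 CPM in sedentary and trained old rats. The ranges of all 4 groups overlapped, so no order of the groups is given.

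Hsd11b1, the enzyme gene, stood at 53.7, 55.1, 57.6 and 49.2 CPM in young sedentary replicates 1 to 4, and at 75.6, 63.8, 71.3 and 73.0 CPM in young trained replicates. It was at 37.9, 34.9, 54.5 and 38.4 CPM in old sedentary and at 60.0, 62.2, 67.0 and 56.2 CPM in old trained replicates. Trained and sedentary rats did not overlap at either age. Old sedentary replicate 3 was again well above the other old sedentary rats and close to the young sedentary ones. As means with SD (n = 4 each), Hsd11b1 was at 53.9 ± 3.54 and 70.9 ± 5.06 CPM in sedentary and trained young rats, and at 41.4 ± 8.85 and 61.3 ± 4.53 CPM in sedentary and trained old rats. From high to low the order was young trained, old trained, young sedentary and old sedentary. Each group overlapped its neighbour in that order, while young and old rats of opposite ends, young trained and old sedentary, lay apart.

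Sgk1, the corticosteroid-responsive kinase gene, was at 188, 248, 246 and 192 CPM in young sedentary replicates 1 to 4 and at 98.5, 115, 146 and 132 CPM in young trained replicates. The young groups did not overlap. In old sedentary rats it was 318, 292, 245 and 296 CPM, and in old trained rats 119, 235, 202 and 305 CPM. Old trained rats were the most scattered, with replicate 1 inside the young trained range and replicate 4 inside the old sedentary range. As means with SD (n = 4 each), Sgk1 was at 219 ± 32.9 and 123 ± 20.4 CPM in sedentary and trained young rats, and at 288 ± 30.8 and 216 ± 77.2 CPM in sedentary and trained old rats. Old sedentary rats were highest and young trained rats lowest on average. The reference annotation also lists an Sgk1 pseudogene, and reads that match both copies make the count of Sgk1 uncertain to that extent.

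**Figure D1:**
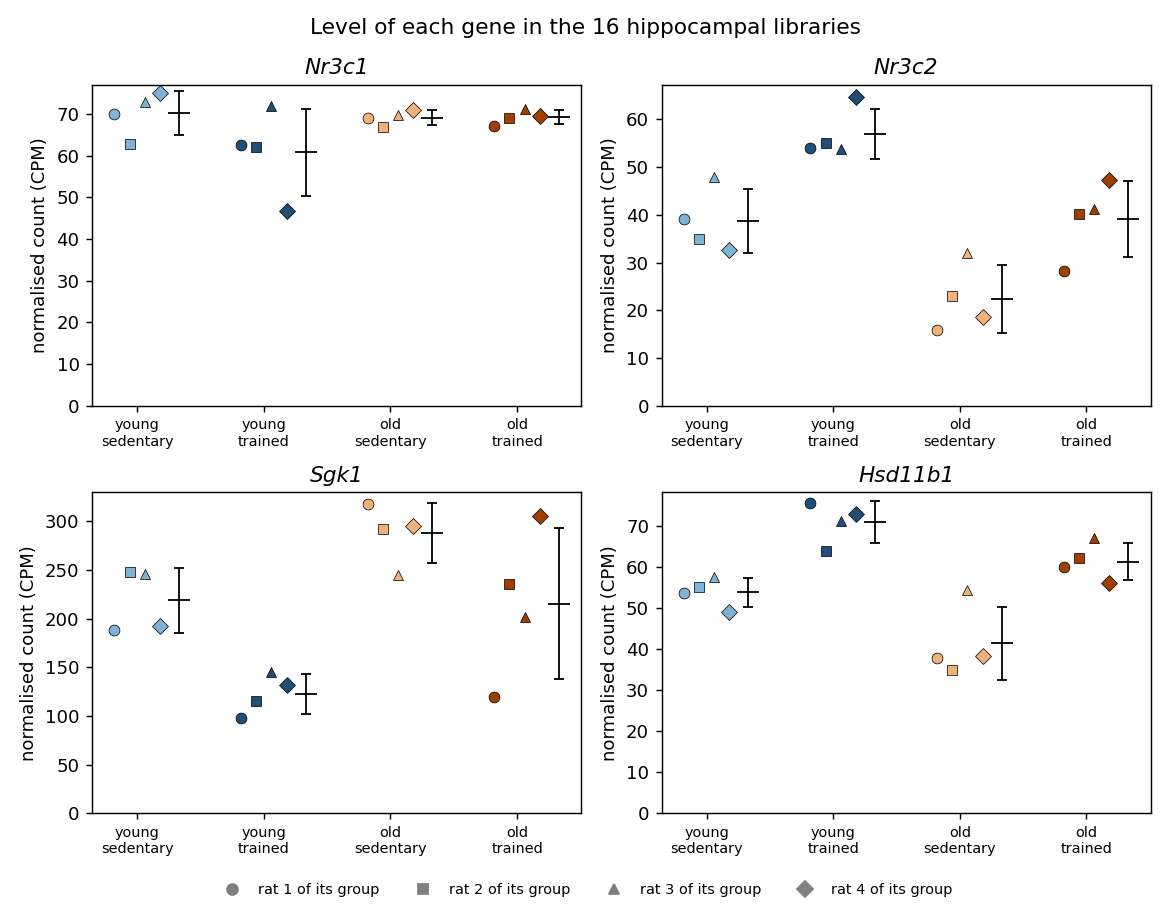
Normalised counts (CPM, y axis from 0) of the 4 genes in the 16 libraries, 1 symbol per rat with its replicate number as the shape, and the group mean with its SD as a bar. Nr3c2 and Hsd11b1 are lowest and Sgk1 highest in old sedentary rats, while Nr3c1 lies between 62.1 and 75.1 CPM in every rat except young trained replicate 4, at 46.7 CPM.

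Whether exercise training was associated with a different level was tested first over both ages. Averaged over age, Nr3c2 was 1.61-fold higher in trained rats, a difference of 0.69 on the log2 scale (SE 0.13, adjusted p = 0.00115, edgeR quasi-likelihood). Hsd11b1 was 1.40-fold higher, a difference of 0.48 on the log2 scale (SE 0.08, edgeR adjusted p = 0.000277). Sgk1 was 1.54-fold lower, a difference of -0.62 on the log2 scale (SE 0.15, edgeR adjusted p = 0.00494). For the glucocorticoid receptor gene Nr3c1 the log2 fold change was -0.10 (SE 0.07, edgeR adjusted p = 0.264), with a 95% interval from -0.25 to 0.04. In this comparison 33.9% of all genes tested were called at an adjusted p below 0.05, with 15.9% higher and 18% lower in trained rats, so the 3 calls among 4 genes stand against a high background. The median log2 fold change over all genes was -0.02.

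All 3 calls held on leaving out any 1 library, with log2 fold changes from 0.62 to 0.80 for Nr3c2, from 0.45 to 0.56 for Hsd11b1 and from -0.72 to -0.51 for Sgk1. They were lost with 1 surrogate variable, a covariate estimated from the counts of all genes, where the values were 0.38 (adjusted p = 0.147), 0.27 (adjusted p = 0.0727) and -0.45 (adjusted p = 0.215). That variable overlapped the groups, which accounted for 64.6% of its variance, and only 6.66% of all genes were called with it.

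In young rats alone, Sgk1 was 1.78-fold lower after training (log2 fold change -0.83, SE 0.21, edgeR adjusted p = 0.0173) and Hsd11b1 was 1.32-fold higher (log2 fold change 0.40, SE 0.11, edgeR adjusted p = 0.0241). Nr3c2 stood 1.47-fold higher, at 0.56 on the log2 scale (SE 0.19, edgeR adjusted p = 0.0511), and did not pass. The groups did not overlap, but the share of all genes without overlap was not counted. Nr3c1 was at -0.21 on the log2 scale (SE 0.10, edgeR adjusted p = 0.144), with a 95% interval from -0.41 to -0.0029. Of all genes tested, 17.1% were called in young rats, 6.78% higher and 10.3% lower. The call of Sgk1 was lost without young sedentary replicate 2 (adjusted p = 0.0527) or young trained replicate 1 (adjusted p = 0.0548), and that of Hsd11b1 without young sedentary replicate 4 (adjusted p = 0.081) or young trained replicate 4 (adjusted p = 0.0504). Nr3c2 passed without any 1 of 6 libraries, for example young sedentary replicate 3 (adjusted p = 0.0311), and Nr3c1 passed without young trained replicate 3 (-0.27, adjusted p = 0.046). Without young trained replicate 4, the library with the lowest Nr3c1 level, Nr3c1 was at -0.084 (adjusted p = 0.482), and its value for training averaged over age went from -0.10 to -0.036. With 1 surrogate variable, Sgk1 (-0.79, edgeR adjusted p = 0.0202) and Hsd11b1 (0.35, edgeR adjusted p = 0.0128) kept their calls in young rats. Nr3c2 passed with it (0.50, edgeR adjusted p = 0.0309), and 18.4% of all genes were called.

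In old rats, Nr3c2 was 1.76-fold higher after training (log2 fold change 0.82, SE 0.19, edgeR adjusted p = 0.00721), and Hsd11b1 was 1.48-fold higher (log2 fold change 0.57, SE 0.11, edgeR adjusted p = 0.00265). Sgk1 did not pass, with a difference of -0.42 on the log2 scale (SE 0.21, edgeR adjusted p = 0.176) and a 95% interval from -0.87 to 0.03. Nr3c1 was at 0.0028 on the log2 scale (SE 0.10, edgeR adjusted p = 0.99), and its 95% interval from -0.20 to 0.21 allows a change of up to 1.15-fold. The background was 24.1% of genes called, 11.5% higher and 12.6% lower. The value of Sgk1 rested on single libraries: without old trained replicate 4 it was -0.62 (adjusted p = 0.0388) and without old trained replicate 1 it was -0.21 (adjusted p = 0.4). With 1 surrogate variable neither call held, the log2 fold changes being 0.26 for Nr3c2 (adjusted p = 0.994) and 0.20 for Hsd11b1 (adjusted p = 0.984), and Sgk1 was at -0.10 (adjusted p = 0.994).

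The difference between the ages in the response to training was tested by the interaction, which was called for 0 of the 4 genes and for 0% of all genes tested. Its log2 estimates, positive where the change in old rats lay above that in young rats, were 0.42 for Sgk1 (SE 0.30, edgeR adjusted p = 0.542), 0.26 for Nr3c2 (SE 0.27, edgeR adjusted p = 0.684), 0.21 for Nr3c1 (SE 0.14, edgeR adjusted p = 0.501) and 0.17 for Hsd11b1 (SE 0.16, edgeR adjusted p = 0.639). Unadjusted p-values of the 4 genes ran from 0.143 to 0.351, so none was below 0.05, against 2033 of all genes tested. The DESeq2 Wald test and limma voom also called 0 of the 4 genes, with 0.293% and 0% of all genes called. Leaving out 1 library gave estimates from 0.19 to 0.60 for Sgk1, 0.12 to 0.48 for Nr3c2, 0.096 to 0.28 for Nr3c1 and 0.097 to 0.33 for Hsd11b1, none of which passed. The upper ends for Nr3c2 (0.48, adjusted p = 0.262) and Hsd11b1 (0.33, adjusted p = 0.115) came without old sedentary replicate 3, where 3.84% of all genes were called. The lower end for Nr3c1 came without young trained replicate 4, and that for Sgk1 without old trained replicate 4. With 1 surrogate variable the estimates were 0.69 for Sgk1, -0.23 for Nr3c2, 0.13 for Nr3c1 and -0.14 for Hsd11b1, with no call. The 95% interval for Sgk1 ran from -0.22 to 1.06, so a training response that differed by up to 2.08-fold between the ages was not excluded by these data. The lack of a call for Sgk1 in old rats is therefore not evidence that its response differed from that in young rats.

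**Figure D2:**
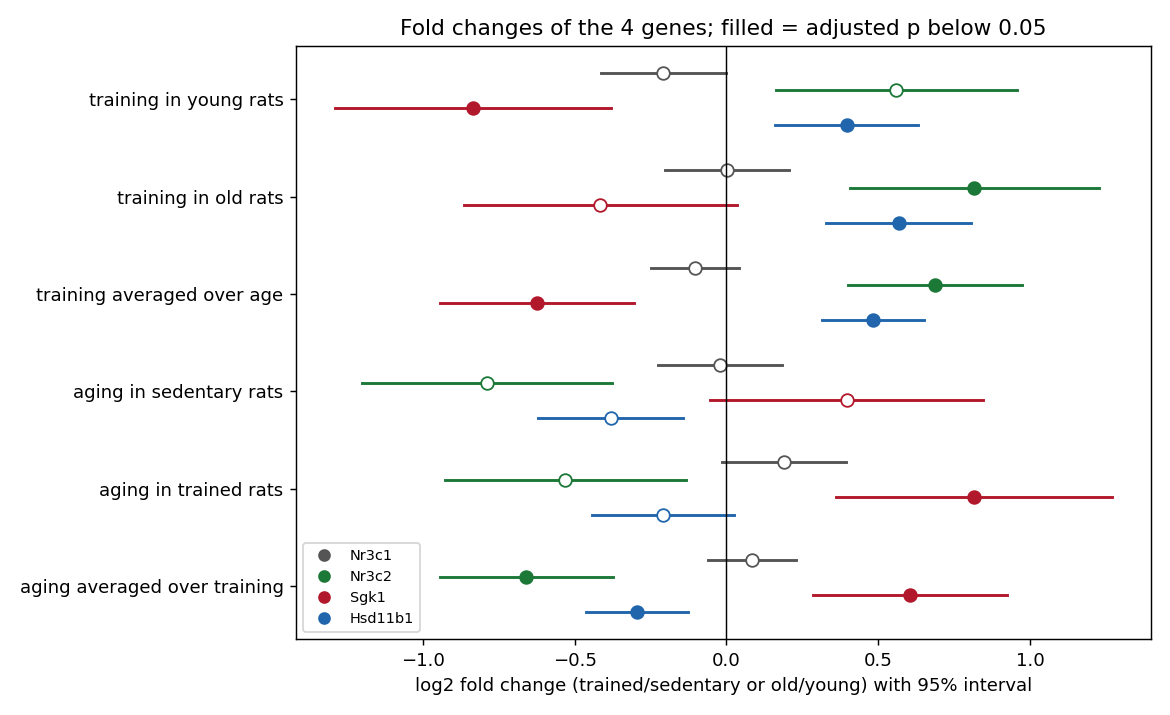
Log2 fold changes of the 4 genes (x axis; trained over sedentary in the upper 3 rows, old over young in the lower 3) with 95% intervals, filled where the edgeR adjusted p was below 0.05. Nr3c2 and Hsd11b1 lie above 0 for training and below 0 for aging, Sgk1 lies on the opposite side in each row, and Nr3c1 stays between -0.21 and 0.19.

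Age was compared over both training states next. Nr3c2 was 1.58-fold lower in old rats, a difference of -0.66 on the log2 scale (SE 0.13, edgeR adjusted p = 0.00745). Hsd11b1 was 1.23-fold lower, a difference of -0.29 on the log2 scale (SE 0.08, edgeR adjusted p = 0.0265). Sgk1 was 1.52-fold higher, a difference of 0.61 on the log2 scale (SE 0.15, edgeR adjusted p = 0.0203). The glucocorticoid receptor gene Nr3c1 was at 0.08 (SE 0.07, edgeR adjusted p = 0.463), with a 95% interval from -0.06 to 0.23. Here 10.5% of all genes tested passed, with 5.51% higher in old rats and 5.03% lower, and the median log2 fold change over all genes was 0.01. The calls of Nr3c2, Sgk1 and Hsd11b1 held with 1 surrogate variable, where Hsd11b1 was at -0.24 (edgeR adjusted p = 0.0228). Those of Nr3c2 and Sgk1 also held without any 1 library. That of Hsd11b1 was lost without young sedentary replicate 3 (adjusted p = 0.0529) or old sedentary replicate 1 (adjusted p = 0.0517), 2 (adjusted p = 0.051) or 4 (adjusted p = 0.0513).

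Within sedentary rats none of the 4 genes passed, where 1.51% of all genes passed, with 1.05% higher in old rats and 0.459% lower. Nr3c2 was at -0.79 on the log2 scale (SE 0.19, edgeR adjusted p = 0.0555), with no overlap between young and old sedentary rats. Hsd11b1 was at -0.38 (SE 0.11, edgeR adjusted p = 0.0813), Sgk1 at 0.40 (SE 0.21, edgeR adjusted p = 0.314) and Nr3c1 at -0.02 (SE 0.10, edgeR adjusted p = 0.944). Unadjusted p-values were 0.000935 for Nr3c2, 0.00377 for Hsd11b1, 0.0806 for Sgk1 and 0.825 for Nr3c1. The DESeq2 Wald test called Nr3c2 (adjusted p = 0.00519) and Hsd11b1 (adjusted p = 0.0345), and limma voom called Nr3c2 (adjusted p = 0.0396). Without old sedentary replicate 3, Nr3c2 was at -1.01 (adjusted p = 0.00121) and Hsd11b1 at -0.54 (adjusted p = 0.00055), while 13.2% of all genes were called. With 1 surrogate variable the values were nearer 0, at -0.46 for Nr3c2 (adjusted p = 0.904), -0.17 for Hsd11b1 (adjusted p = 0.988) and 0.20 for Sgk1 (adjusted p = 0.999).

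Within trained rats, Sgk1 was 1.76-fold higher in old than in young rats, a difference of 0.81 on the log2 scale (SE 0.21, edgeR adjusted p = 0.0417), although 1 old trained rat lay within the young range. Nr3c2 was at -0.53 (SE 0.19, edgeR adjusted p = 0.109), again with no overlap between the groups, Hsd11b1 at -0.21 (SE 0.11, edgeR adjusted p = 0.274) and Nr3c1 at 0.19 (SE 0.10, edgeR adjusted p = 0.258). As background, 4.98% of genes passed, with 3.33% higher in old rats and 1.65% lower. The call of Sgk1 was lost without any 1 of 10 libraries, each left out alone, with adjusted p up to 0.105. With 1 surrogate variable Sgk1 kept its call, and Nr3c2 (-0.69, adjusted p = 0.0157) and Hsd11b1 (-0.32, adjusted p = 0.046) passed. Without young trained replicate 4, Nr3c1 was at 0.074 (adjusted p = 0.657) here and at 0.026 (adjusted p = 0.799) for aging averaged over training.

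**Figure D3:**
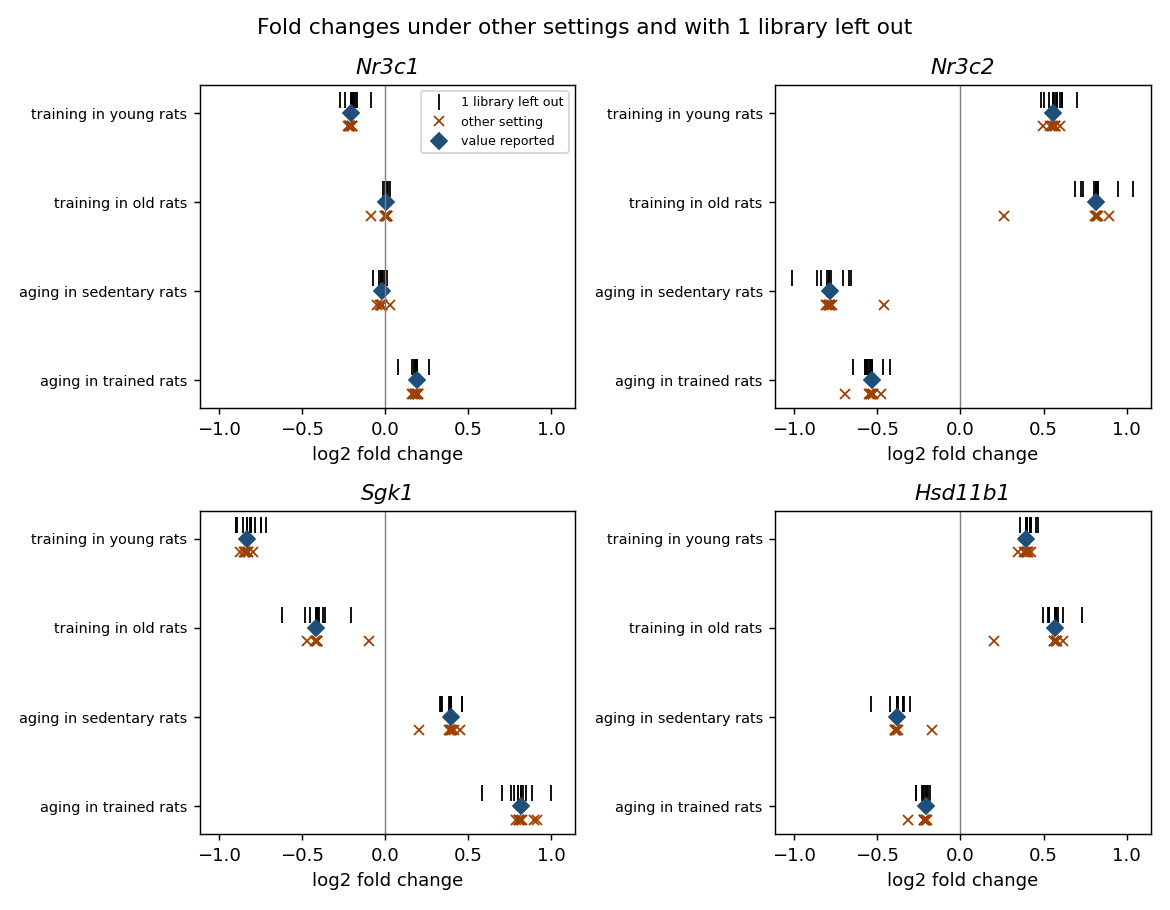
Log2 fold changes (x axis) of each gene in the 4 comparisons of 2 groups, as reported (diamonds), with each of the 16 libraries left out in turn (bars) and under the other settings tried (crosses). The cross that lies nearer 0 for Nr3c2, Hsd11b1 and Sgk1 in the rows for training in old rats and aging in sedentary rats is the fit with 1 surrogate variable, for example 0.26 against 0.82 for Nr3c2.

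The balance of the receptor genes was described by the ratio of Nr3c2 counts to Nr3c1 counts within each library, which does not depend on how libraries are scaled. It is not corrected for gene length, so only its differences between groups can be read. In young sedentary replicates 1 to 4 the ratio was 0.559, 0.554, 0.657 and 0.435, and in young trained replicates 0.861, 0.886, 0.747 and 1.39. All young trained rats were above all young sedentary rats. In old sedentary rats it was 0.231, 0.343, 0.459 and 0.261, and in old trained rats 0.420, 0.580, 0.580 and 0.678, with an overlap between old sedentary replicate 3 and old trained replicate 1. As means with SD (n = 4 each), the ratio was at 0.551 ± 0.0906 and 0.970 ± 0.284 in sedentary and trained young rats, and at 0.323 ± 0.102 and 0.564 ± 0.107 in sedentary and trained old rats. As a geometric mean, the ratio was 1.73-fold higher in trained than in sedentary young rats and 1.78-fold higher in old ones. In old rats it was 0.572 times that of young rats when sedentary and 0.590 times when trained. The highest ratio, in young trained replicate 4, combined the highest Nr3c2 level with the lowest Nr3c1 level of any library. No p is given for the ratio, since both genes were chosen with earlier results of these data known. The p-values of the single genes are subject to the same choice.

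The ratio of Sgk1 counts to Nr3c2 counts, a kinase gene against the gene of a receptor it is known as a target of, moved in the opposite direction and over a wider range. Nr3c2 is the numerator of the first ratio and the denominator of this one, and Sgk1 itself differed in the direction opposite to Nr3c2. Both the direction and the range therefore restate the levels of the single genes and are no separate support. It averaged 5.74 ± 1.02 and 2.17 ± 0.382 in sedentary and trained young rats, and 14.1 ± 5.21 and 5.37 ± 0.995 in sedentary and trained old rats (SD, n = 4 each). Neither pair of trained and sedentary groups overlapped: the highest young trained value was 2.71 against a lowest young sedentary value of 4.81, and the highest old trained value was 6.47 against a lowest old sedentary value of 7.65. That lowest old sedentary value was again replicate 3, while the other 3 rats lay between 12.7 and 20.0.

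**Figure D4:**
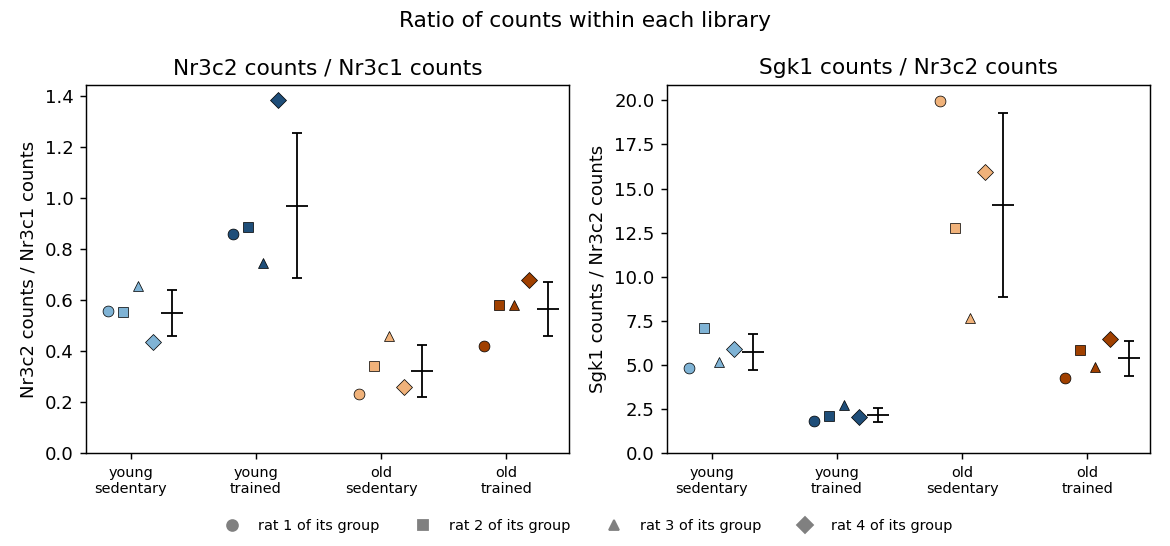
Ratio of Nr3c2 to Nr3c1 counts (left) and of Sgk1 to Nr3c2 counts (right) in each library, y axes from 0, with 1 symbol per rat and the group mean with its SD as a bar. The left ratio is highest in young trained rats (mean 0.970) and lowest in old sedentary rats (mean 0.323), and the right ratio is the reverse (means 2.17 and 14.1). Nr3c2 is the numerator on the left and the denominator on the right, so the 2 panels are not independent.

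Among themselves, Nr3c2 and Hsd11b1 were the most alike of the 4 genes. Over the 16 libraries their log2 CPM had Pearson r = 0.888 and Spearman rho = 0.85, and r = 0.554 after group means were removed. Sgk1 and Hsd11b1 had r = -0.739 over the libraries and -0.191 with group means removed, and Sgk1 and Nr3c2 had r = -0.611 and 0.341. The values with group means removed pool groups that differed. In old sedentary rats Sgk1 and Nr3c2 ran in opposite order, from 318 and 15.9 CPM in replicate 1 to 245 and 32.0 CPM in replicate 3. In old trained rats both were lowest in replicate 1 and highest in replicate 4. The correlations are descriptions over 16 libraries that share the group structure and carry no p. Hsd11b1 and Nr3c2 also followed the first principal component, with r = 0.93 and 0.846 over the libraries and 0.747 and 0.654 with group means removed. For Sgk1 the corresponding values were -0.7 and -0.172, and for Nr3c1 -0.348 and -0.048. The surrogate variable had r = 0.866 with that component, and the fit with it took training averaged over age from 0.69 to 0.38 for Nr3c2 and from 0.48 to 0.27 for Hsd11b1. The groups accounted for 64.6% of its variance, so the common axis and the training groups cannot be told apart in full.

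**Figure D5:**
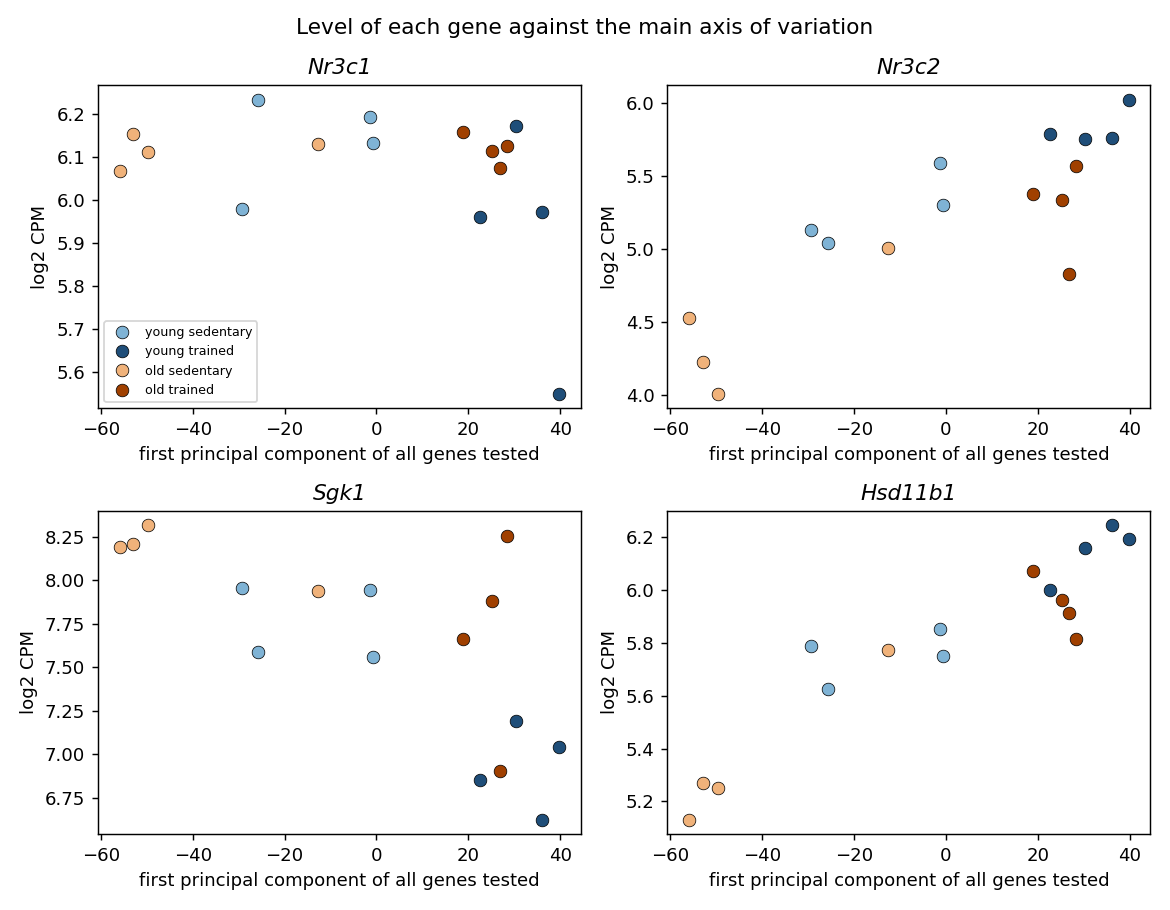
Level of each gene (y axis, log2 CPM) against the first principal component of all genes tested (x axis, no unit), 1 point per library, coloured by group. Hsd11b1 and Nr3c2 rise along the axis (r = 0.93 and 0.846), with old sedentary replicate 3, at -12.7, beside the young sedentary libraries, whereas Nr3c1 shows no such slope (r = -0.348).

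The gene most like each of the 4 was taken as the one with the highest Pearson r of log2 CPM over the 16 libraries, among 13387 other genes whose log2 CPM averaged 1 or more. For Nr3c2 it was ENSRNOG00000015603 (r = 0.984), which was higher in trained rats with a log2 fold change of 0.58 (edgeR adjusted p = 0.00586). For Hsd11b1 it was ENSRNOG00000016265 (r = 0.974), also higher in trained rats at 0.55 (edgeR adjusted p = 0.00035). For Sgk1 it was ENSRNOG00000009565 (r = 0.939), lower in trained rats at -0.85 (edgeR adjusted p = 0.0011). For Nr3c1 it was ENSRNOG00000048394 (r = 0.947), with a log2 fold change of -0.39 that did not pass (edgeR adjusted p = 0.0517). The symbols of these IDs are not given in the sources used here, and the r values are the highest of many and carry no p. Because r was taken over all groups, a gene picked this way shares the group differences of its member. Its training value and adjusted p are therefore no separate support for that member.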

How the data were processed

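Poly(A) RNA of bulk hippocampus was sequenced from 16 rats, 4 per group. The authors deposited 1 table of unnormalized counts per Ensembl gene ID. The submitters' processing notes list TopHat2 2.1.1, HTSeq, SAMtools, Trimmomatic, FastQC and DESeq2, without their roles, and the build Rnor_6.0. Strand setting and sequencing lane are not given in the sources used here. Overlapping genes are therefore uncertain, and a lane effect cannot be told apart from the groups. The labels call the samples biological replicates, and p-values measure the spread between rats. No 2 libraries of a group agreed within sampling noise.

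Counts were fitted with edgeR 4.0.16 in R 4.3.3: filterByExpr by group, TMM scaling, 1 mean per group over all 16 libraries, robust glmQLFit with 12 residual degrees of freedom, and glmQLFTest, 2-sided. Benjamini-Hochberg adjustment was over all 15035 genes tested, with calls at adjusted p below 0.05. The standard error is the size of the log2 fold change divided by the square root of F, and intervals are 95%. CPM are after TMM scaling, log2 CPM with a prior count of 2. Alternatives used DESeq2 1.42.0, limma 3.58.1 and sva 3.50.0.

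Members, gene lists, tests and comparisons were chosen with earlier results of these data known. The rule for named genes took the 4 members and the gene most like each. The 7 lists of pathway genes were not counted, because the reference table matched 0 IDs.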

Additional observations from a re-analysis of the deposited data

Results flagged for a closer look

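Of 16 sets of 4 values, 1 per gene and group, 1 held a library far from the others. Nr3c2 in young trained replicate 4 was 64.7 CPM, and the gap to the nearest of the other 3 young trained rats was 0.879 of the range of the group, above Dixon's critical value for 4 samples. Chance marks about 1 in 20 such sets. The same library had the lowest Nr3c1 level of all, 46.7 CPM. Without it, Nr3c2 in young trained against young sedentary rats was at 0.51 on the log2 scale, against 0.56 with it.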

How the results depend on the processing

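The directions of Nr3c2, Sgk1 and Hsd11b1 were the same under every setting tried in the 6 comparisons of groups, and the exceptions were in the interaction and for Nr3c1, whose values lay near 0. The cause of each change was not tested unless stated. No surrogate variable could be had from the genes tested, because it came out as an indicator of 1 library. One estimated on all genes with a count was added after the data were seen. With it, training averaged over age gave 0.38 for Nr3c2, -0.45 for Sgk1 and 0.27 for Hsd11b1, training in old rats gave 0.26 for Nr3c2, -0.10 for Sgk1, 0.20 for Hsd11b1 and -0.085 for Nr3c1, and none of these passed. Nr3c2 passed for training in young rats (0.50) and aging in trained rats (-0.69), and Hsd11b1 for aging in trained rats (-0.32). For training in young rats, Sgk1 (-0.79) and Hsd11b1 (0.35) kept their calls. Nr3c1 turned to 0.031 for aging in sedentary rats, and the interaction to -0.23 for Nr3c2 and -0.14 for Hsd11b1. The share of all genes called was 6.66% for training averaged over age, 0.0133% for training in old rats and 0.0732% for aging in sedentary rats.

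Nr3c2 passed for training in young rats with DESeq2 size factors (0.57), the DESeq2 Wald test (0.57), limma voom (0.60), only the groups compared (0.54) and a replicate block (0.57). It passed for aging in sedentary rats with DESeq2 (-0.79), limma voom (-0.77) and the block (-0.81), and for aging in trained rats with limma voom (-0.48) and only the groups compared (-0.54). Hsd11b1 passed for aging in sedentary rats with DESeq2 (-0.39) and the block (-0.39). Sgk1 lost its call for aging in trained rats without a filter (0.82) and with only the groups compared (0.80). Nr3c1 for training in old rats changed sign with a stricter filter (-0.00074) and with only the groups compared (-0.0024). The block gave 3.72% of all genes called for aging in sedentary rats. The labels do not say that a replicate number marks related rats, so the block is given here only. The correlation of deviations averaged 0.087 for pairs of libraries with the same number, above 0.1 in 12 of 24, and -0.029 for the other pairs. Of 16 libraries, 9 were closest to one of their own number, a hint from the data and not from the design.

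Shares of all genes called also moved. DESeq2 gave 6.05% for aging in sedentary rats, 8.27% for aging in trained rats and 0.293% for the interaction. limma voom gave 3.04%, 8.97% and, for training in young rats, 29.2%. Without a filter, which tests more genes, shares were 20.7% for training averaged over age, 8.75% in young and 14.2% in old rats, and 5.3%, 0.951% and 2.52% for aging averaged, in sedentary and in trained rats. With only the groups compared they were 16% for training in old rats and 0.164% for aging in sedentary rats.

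Leaving out 1 library gave these ranges of log2 fold changes. For training in young rats they were -0.27 to -0.084 for Nr3c1, 0.49 to 0.70 for Nr3c2, -0.90 to -0.72 for Sgk1 and 0.36 to 0.47 for Hsd11b1. For training in old rats they were -0.013 to 0.026 for Nr3c1 and -0.62 to -0.21 for Sgk1. For aging in sedentary rats they were -0.075 to 0.011 for Nr3c1, -1.01 to -0.66 for Nr3c2 and -0.54 to -0.31 for Hsd11b1. For aging in trained rats they were -0.65 to -0.42 for Nr3c2 and 0.58 to 1.00 for Sgk1, and for aging averaged over training -0.38 to -0.26 for Hsd11b1. Shares of all genes called ran from 8.5% to 19.7% for training in young rats, 6.26% to 16.2% for aging averaged over training, 0.25% to 13.2% in sedentary and 1.56% to 6.91% in trained rats, and 0% to 3.84% for the interaction.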

Other observations

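Old trained and young sedentary rats, which differ in both age and training and were not tested against each other, had means of 39.2 ± 7.96 and 38.7 ± 6.75 CPM (SD, n = 4 each) for Nr3c2 and of 216 ± 77.2 and 219 ± 32.9 CPM (SD, n = 4 each) for Sgk1. For Hsd11b1 the means were 61.3 ± 4.53 and 53.9 ± 3.54 CPM (SD, n = 4 each), and the ranges of these groups overlapped in all 3 genes.

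The ratio of Hsd11b1 counts to Nr3c1 counts, enzyme gene against receptor gene, averaged 0.771 ± 0.0908 and 1.20 ± 0.261 in sedentary and trained young rats, and 0.598 ± 0.122 and 0.885 ± 0.0567 in sedentary and trained old rats (SD, n = 4 each). Trained and sedentary rats did not overlap in it at either age. The ratio of Sgk1 to Nr3c1 counts averaged 3.14 ± 0.642 and 2.07 ± 0.536 in sedentary and trained young rats (SD, n = 4 each), where 1 trained rat overlapped the sedentary range. In old rats it averaged 4.17 ± 0.476 when sedentary and 3.10 ± 1.09 when trained (SD, n = 4 each), and the groups overlapped.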
